A study of Mus musculus with 24 samples.

Results

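The 10 genes described here are mouse genes whose transcripts respond to glucocorticoid hormones, together with the gene of the receptor that senses those hormones. They are Nr3c1, Fkbp5, Tsc22d3, Zbtb16, Klf9, Klf15, Hif3a, Sgk1, Pdk4 and Plin4, and they make up 10 of the 22274 genes in the deposited tables. They were chosen on the measured values of these same libraries, from the comparisons of each group given growth hormone (GH) with its group without GH and of each lesion group with Sham. In those comparisons, and in those that are sums or differences of them, their values are therefore a description, given with no gene-wise test. Member calls in the sums and differences stand only under the processing, and are not read as tests. Genes chosen in this way do not show how the glucocorticoid-induced genes behaved as a class. A wider list of 24 other genes is given further down, and since it too was written with earlier results of these data known, it is a description and no independent view of the class.

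Transcripts were measured by RNA sequencing of mouse brain tissue in 24 libraries, 3 for each of 8 groups. PEL stands for the pituitary stalk electrical lesion, made by passing current through the stalk between hypothalamus and pituitary. The 6 hypothalamic groups were Sham and Sham with GH (Sham_GH), both labelled day 0, PEL at day 3 without and with GH (PEL_3d, PEL_3d_GH), and PEL at day 10 without and with GH (PEL_10d, PEL_10d_GH). The hippocampal groups were Sham at day 0 (HIP_Sham) and PEL at day 10 (HIP_PEL_10d), both without GH. The study's methods name male C57BL/6 J mice, and the labels give no age, no GH dose, route, vehicle or timing, and no statement that the libraries come from separate animals. The p-values given below thus measure the spread between libraries and nothing else, and the lesion cannot be told apart from the labelled day when it is compared with Sham. Total counts ran from 15095267 to 17973494 per library, with a median of 15883700.

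Glucocorticoids from the adrenal cortex enter brain cells and bind the glucocorticoid receptor, which chaperones hold in the cytoplasm. The bound receptor moves to the nucleus, binds DNA elements near its target genes and raises the transcription of many of them, among them genes whose products damp the receptor itself. The hypothalamus starts this axis by releasing corticotropin-releasing hormone towards the pituitary and is also one of the places where the hormone feeds back.

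In Sham 1 and HIP_Sham 1 the transcripts went against the labels. In Sham 1, labelled hypothalamus, the 10 hypothalamic neuron markers summed to 8.39 FPKM (fragments per kilobase of gene, scaled to library depth), with Sim1 and Agrp at 0, against 1308 and 1277 in Sham 2 and 3. The choroid plexus markers, led by Ttr, summed to 14917 FPKM in Sham 1 and to 25.6 and 22.8 in the other Sham libraries, and the hippocampus markers to 212 against 39.6 and 41.6. In HIP_Sham 1, labelled hippocampus, the hypothalamic neuron markers, led by Pmch, summed to 1093 FPKM, against 1.27 and 2.54 in HIP_Sham 2 and 3, and the hippocampus markers to 38.9 against 313 and 281. The library titled as the third hippocampal Sham carries hypothalamus in its tissue field and held hippocampal transcripts. Members also stood apart in these libraries. Klf9, for example, stood at 219.5 CPM (counts scaled to library depth) in Sham 1 and at 90.4 and 88.6 in Sham 2 and 3, and at 84.2 CPM in HIP_Sham 1 and at 257 and 249 in HIP_Sham 2 and 3. The study's own analysis set aside a hypothalamic Sham library, which its text does not name. Here both libraries were kept under their labels, and values that rest on either are given first with it and then without it.

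PEL_10d_GH 3 stood apart in pituitary transcripts. Its Pomc, a gene of pituitary and of some hypothalamic cells, stood at 5301 CPM, where PEL_10d_GH 1 and 2 had 23.0 and 29.3 and the other 14 hypothalamic libraries without Sham 1 ran from 9.96 to 76.2 CPM. The 7 anterior pituitary markers, led by Cga, summed to 76.8 FPKM in PEL_10d_GH 3 with none at 0, to 9.29 and 26.3 in PEL_10d_GH 1 and 2, where Lhb was at 0, and to between 5.15 and 36.1 in those 14. The 9 members other than Nr3c1 stood highest of their group in PEL_10d_GH 3. The part of these transcripts in the members' levels was not tested, and results that rest on PEL_10d_GH 3 are given with and without it.

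Between genes, levels were compared in FPKM, which is scaled by gene length. Over the 17 hypothalamic libraries other than Sham 1, Sgk1 and Tsc22d3 had the highest median levels, 45.5 and 44.2 FPKM. Nr3c1 and Klf9 followed at 23.2 and 20.3 FPKM, then Fkbp5 at 12.9 and Klf15 at 8.89 FPKM. Pdk4, Zbtb16, Plin4 and Hif3a were the low members, at 3.24, 2.66, 1.20 and 1.18 FPKM. Ranges of neighbours in this order overlapped in all but 2 places. Sgk1 ran from 15.4 to 95.9 FPKM. Tsc22d3 ran from 27.5 to 70.3 FPKM, wholly above Nr3c1 at 19.7 to 26.9. Klf9 ran from 11.96 to 28.8 FPKM, Fkbp5 from 9.66 to 22.3 and Klf15 from 6.03 to 12.4, wholly above Pdk4 at 2.77 to 4.79. Zbtb16 ran from 1.29 to 7.23 FPKM, Plin4 from 0.517 to 3.32 and Hif3a from 0.307 to 2.03. Over the 5 hippocampal libraries other than HIP_Sham 1 the order differed, with Klf9 highest at a median of 46.2 FPKM, Zbtb16 at 9.35 and Plin4 lowest at 0.236. The deposited FPKM of some members did not track their counts in every library. The gene length they imply ran from 955 to 6411 bases for Hif3a, from 1774 to 2576 for Sgk1, from 2573 to 3484 for Pdk4 and from 3951 to 5115 for Zbtb16, with a smaller ratio for the rest, so the order of Sgk1 and Tsc22d3 and of the low members is approximate. Members are therefore compared between libraries in CPM scaled by the trimmed mean of M-values (TMM), while marker sums are given in FPKM. All 10 members passed the filter on low counts in every comparison.

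**Figure D1:**
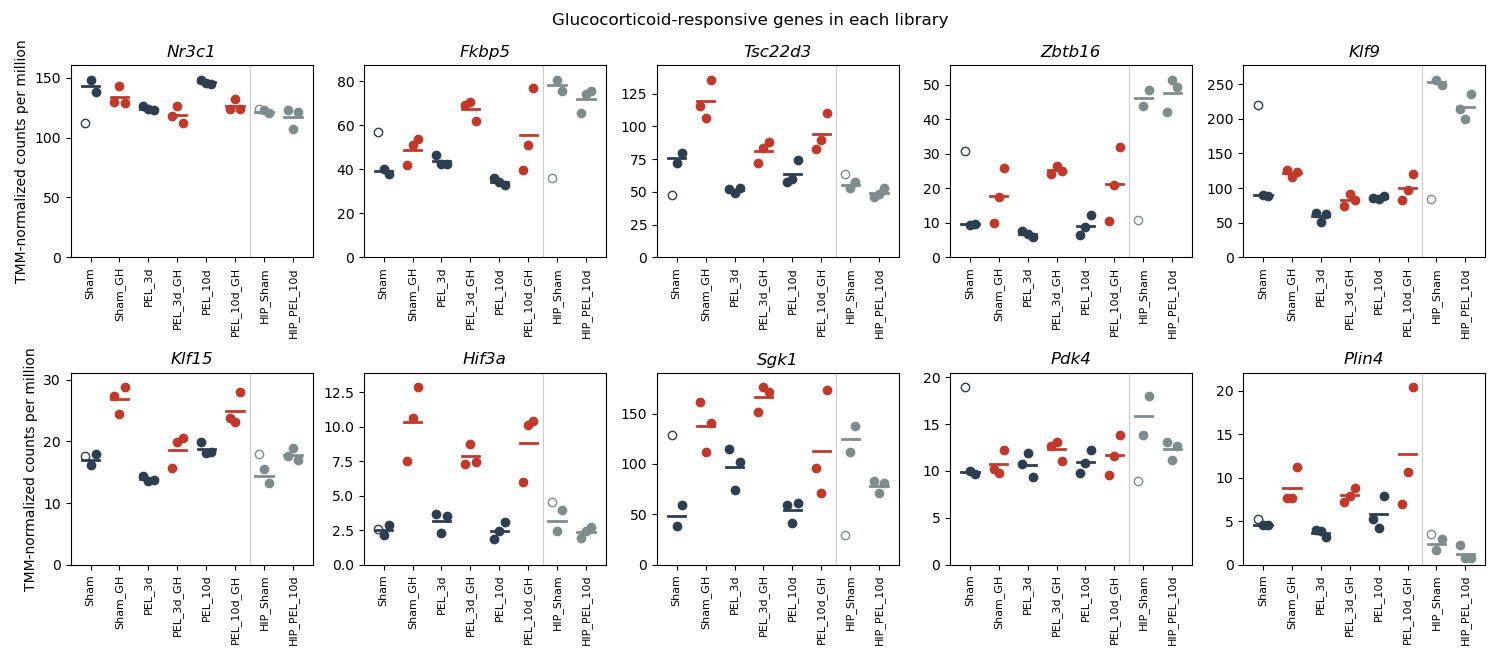
Level of each glucocorticoid-responsive gene in every library, in TMM-scaled CPM on a linear axis from 0, 1 panel per gene and 1 column per group. Points are libraries, open symbols are Sham 1 and HIP_Sham 1, and bars are group means without these. In the Hif3a panel the 9 hypothalamic libraries with GH sit between 6.02 and 12.9 CPM, above all 9 without GH.

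The first question the design poses is what GH did to these transcripts, in Sham mice and at each time after the lesion. Against their groups without GH, 9 of 10 members had a positive log2 fold change in PEL_3d_GH, 9 of 10 in PEL_10d_GH, or 8 of 10 without PEL_10d_GH 3, and 8 of 10 in Sham_GH, or 9 of 10 without Sham 1. The members' median log2 fold change was 0.65 in PEL_3d_GH and 0.62 in PEL_10d_GH, or 0.41 without PEL_10d_GH 3, where the medians over all genes tested were 0.01, 0.00 and 0.00. In Sham_GH it was 0.37, and 0.65 without Sham 1. Every GH library lay above every library without GH for 8 members in PEL_3d_GH, as for 5.96% of all genes tested. The same held for 5 members in PEL_10d_GH (5.97% of all genes), or 5 without PEL_10d_GH 3 (10.6%), and for 4 in Sham_GH (9.62%), or 8 without Sham 1 (17.2%). Since these comparisons chose the members, nothing is read from these counts.

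Over all genes, edgeR (quasi-likelihood test, Benjamini-Hochberg adjusted over all genes tested, threshold 0.05) called 4 of 14798 genes (0.0270%) in PEL_3d_GH against PEL_3d, and DESeq2 called 48 higher and 9 lower. Fam107a and Socs2, which are on lists given further down, and Gpr50, named after its values were seen, were among the 4. This count rested on single libraries: it was 1 without PEL_3d 1 or without PEL_3d_GH 1, 2 without PEL_3d 3 or PEL_3d_GH 2, and 56 without PEL_3d_GH 3. In PEL_10d_GH against PEL_10d edgeR called 0 of 14763 genes (0%), with 550 genes higher and 356 lower at an unadjusted p under 0.05, while DESeq2 called 34 genes higher and 7 lower. Without PEL_10d_GH 3 edgeR also called 0, of 14912 genes (0%), with 419 higher and 213 lower at an unadjusted p under 0.05. In Sham_GH against Sham edgeR called 0 of 14404 genes (0%), with 338 higher and 449 lower at an unadjusted p under 0.05, while DESeq2 called 10 genes higher and 1 lower. Without Sham 1 edgeR called 159 of 14539 genes (1.09%) in that comparison. These counts are over all genes, any members that passed included. The number of members among them is not given, since the comparisons chose the members.

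**Figure D2:**
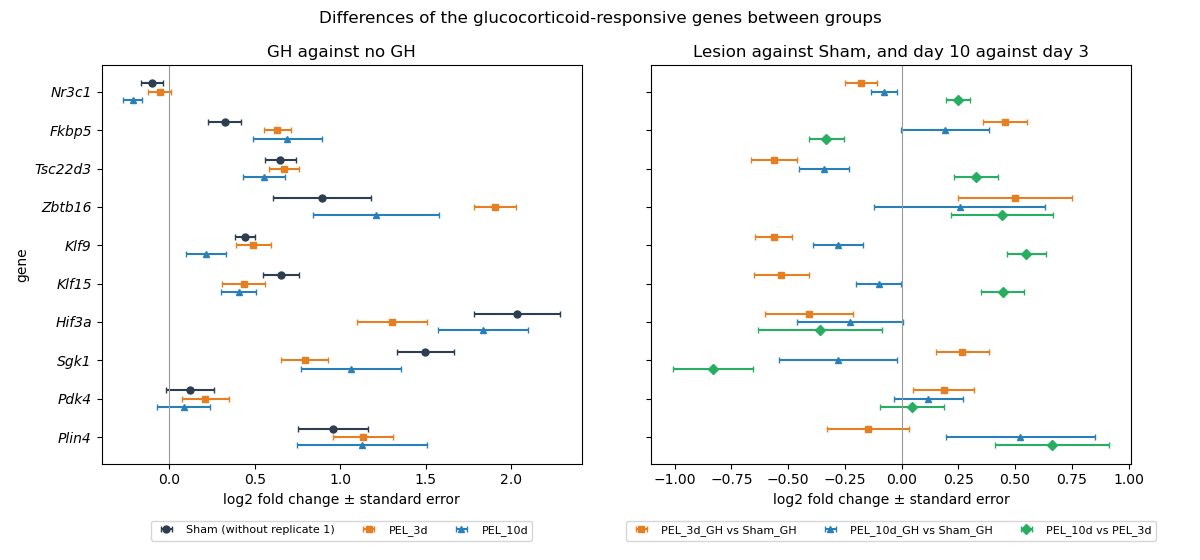
Log2 fold change of each gene with its standard error as bars, on linear axes with 0 marked. The left panel sets GH groups against groups without GH, with Sham 1 left out; the right panel shows PEL_3d_GH and PEL_10d_GH against Sham_GH and PEL_10d against PEL_3d. On the left every point lies above 0 except those of Nr3c1, and Hif3a lies farthest right in Sham and PEL_10d. This depends on the libraries shown, which include PEL_10d_GH 3. With Sham 1, Klf9 and Pdk4 have -0.14 and -0.27 in Sham_GH. Without PEL_10d_GH 3, Pdk4 has -0.05 in PEL_10d_GH.

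Nr3c1 encodes the glucocorticoid receptor itself. It stood at 112, 148 and 138 CPM in Sham 1, 2 and 3 and at 129.5, 143 and 129 in Sham_GH. PEL_3d libraries held 126, 123 and 123 CPM and PEL_3d_GH libraries 118, 126 and 112 CPM. PEL_10d libraries held 148, 146 and 145 CPM and PEL_10d_GH libraries 124, 132 and 124 CPM. The receptor varied little between libraries. The groups with and without GH overlapped in Sham and at day 3, and at day 10 every GH library lay below every library without GH. Its log2 fold change with GH (± standard error, n = 3 libraries per group) was -0.21 ± 0.05, or -0.19 ± 0.07 without PEL_10d_GH 3, at day 10, -0.05 ± 0.07 at day 3 and 0.00 ± 0.12 in Sham, or -0.10 ± 0.06 without Sham 1.

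Fkbp5 acts in feedback on the hormone signal. Fkbp5 encodes a co-chaperone that lowers the receptor's affinity for hormone. Sham libraries held 57.1, 40.1 and 37.9 CPM and Sham_GH libraries 42.1, 50.9 and 53.6 CPM. PEL_3d libraries held 46.4, 42.4 and 42.2 CPM and PEL_3d_GH libraries 69.2, 70.7 and 62.2 CPM. PEL_10d libraries held 35.9, 34.3 and 33.0 CPM and PEL_10d_GH libraries 39.5, 51.1 and 76.7 CPM. The GH libraries lay above their groups without GH on both days, and at day 10 PEL_10d_GH 3 stood well above the rest. Sham 1 lay above every Sham_GH library, and Sham 2 and 3 lay below them all. Group means (± SD, n = 3) were 43.7 ± 2.39 and 67.3 ± 4.55 CPM at day 3 and 34.4 ± 1.44 and 55.8 ± 19.0 CPM at day 10, or 45.3 ± 8.16 without PEL_10d_GH 3. For Fkbp5 the log2 fold change with GH was 0.63 ± 0.08 at day 3, 0.69 ± 0.20, or 0.39 ± 0.12 without PEL_10d_GH 3, at day 10 and 0.11 ± 0.19 in Sham, or 0.32 ± 0.10 without Sham 1.

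Tsc22d3 encodes GILZ, a leucine zipper protein that dampens inflammatory transcription. Sham libraries held 47.8, 71.9 and 79.9 CPM and Sham_GH libraries 116, 106 and 136 CPM. PEL_3d libraries held 52.1, 49.0 and 52.9 CPM and PEL_3d_GH libraries 71.9, 83.6 and 88.1 CPM. PEL_10d libraries held 57.7, 59.5 and 74.3 CPM and PEL_10d_GH libraries 82.5, 89.8 and 109.8 CPM. In each of the 3 settings all GH libraries lay above all libraries without GH, and the lowest GH value was that of PEL_3d_GH 1. For Tsc22d3 the log2 fold change with GH was 0.84 ± 0.21 in Sham, or 0.65 ± 0.09 without Sham 1, 0.67 ± 0.09 at day 3 and 0.55 ± 0.12, or 0.43 ± 0.11 without PEL_10d_GH 3, at day 10.

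Zbtb16, Klf9, Klf15 and Hif3a encode transcription factors. Zbtb16, also called PLZF, is a zinc finger protein that mostly represses its targets. Sham libraries held 30.8, 9.30 and 9.78 CPM and Sham_GH libraries 10.0, 17.4 and 25.8 CPM. PEL_3d libraries held 7.62, 6.66 and 5.98 CPM and PEL_3d_GH libraries 24.2, 26.5 and 24.9 CPM. PEL_10d libraries held 6.42, 8.76 and 12.2 CPM and PEL_10d_GH libraries 10.5, 21.0 and 32.1 CPM. The day 3 groups were far apart and tight within themselves, with means (± SD, n = 3) of 6.75 ± 0.826 and 25.2 ± 1.15 CPM, whereas PEL_10d_GH spread widely and its lowest library overlapped PEL_10d. For Zbtb16 the log2 fold change with GH was 1.91 ± 0.12 at day 3, where it ranked 2 of 14798 genes, and 1.21 ± 0.37 at day 10, where it ranked 28 of 14763. Without PEL_10d_GH 3 the day 10 value was 0.78 ± 0.32, and it ranked 118 of 14912. In Sham the log2 fold change was 0.08 ± 0.58, and Zbtb16 ranked 4862 of 14404. Without Sham 1, whose 30.8 CPM exceeded every other hypothalamic library without GH, it was 0.89 ± 0.28, with a rank of 119 of 14539. These comparisons chose the members, so nothing is read from the ranks.

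Klf9 is a Krüppel-like factor. Sham libraries held 219.5, 90.4 and 88.6 CPM and Sham_GH libraries 127, 116 and 123 CPM. PEL_3d libraries held 63.7, 51.4 and 62.7 CPM and PEL_3d_GH libraries 74.1, 91.5 and 82.8 CPM. PEL_10d libraries held 85.8, 84.3 and 87.9 CPM and PEL_10d_GH libraries 83.0, 96.5 and 121 CPM. PEL_3d held the lowest values, the GH libraries lay above those without GH at day 3, and at day 10 the groups overlapped. For Klf9 the log2 fold change with GH was 0.49 ± 0.10 at day 3 and 0.21 ± 0.12, or 0.06 ± 0.08 without PEL_10d_GH 3, at day 10. In Sham its sign turned on Sham 1, from -0.14 ± 0.37 with that library to 0.44 ± 0.06 without it.

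Klf15 is a Krüppel-like factor that governs amino acid and glucose metabolism. Sham libraries held 17.6, 16.2 and 17.9 CPM and Sham_GH libraries 27.3, 24.4 and 28.8 CPM. PEL_3d libraries held 14.4, 13.6 and 13.7 CPM and PEL_3d_GH libraries 15.6, 19.9 and 20.5 CPM. PEL_10d libraries held 19.9, 18.2 and 18.3 CPM and PEL_10d_GH libraries 23.7, 23.2 and 28.0 CPM. All GH libraries lay above all libraries without GH in each setting, by the smallest margin at day 3. For Klf15 the log2 fold change with GH was 0.63 ± 0.11 in Sham, or 0.65 ± 0.11 without Sham 1, 0.43 ± 0.13 at day 3 and 0.41 ± 0.10, or 0.32 ± 0.10 without PEL_10d_GH 3, at day 10.

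Hif3a encodes a hypoxia-inducible factor subunit that can oppose the other subunits of its family. Sham libraries held 2.60, 2.13 and 2.91 CPM and Sham_GH libraries 7.52, 10.7 and 12.9 CPM. PEL_3d libraries held 3.69, 2.32 and 3.56 CPM and PEL_3d_GH libraries 7.33, 8.76 and 7.45 CPM. PEL_10d libraries held 1.86, 2.48 and 3.07 CPM and PEL_10d_GH libraries 6.02, 10.1 and 10.4 CPM. No library with GH reached down to any hypothalamic library without GH, Sham 1 included. For Hif3a the log2 fold change with GH was 2.01 ± 0.25, or 2.03 ± 0.25 without Sham 1, in the Sham groups, 1.30 ± 0.20 at day 3 and 1.83 ± 0.26, or 1.70 ± 0.29 without PEL_10d_GH 3, at day 10. It ranked 11 of 14404 genes in Sham, or 18 of 14539 without Sham 1, 12 of 14798 at day 3 and 8 of 14763 at day 10, or 17 of 14912 without PEL_10d_GH 3. As for Zbtb16, nothing is read from these ranks, since the comparisons chose the members.

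Sgk1, Pdk4 and Plin4 act on transport and fuel use. Sgk1 encodes a serum- and glucocorticoid-regulated kinase that controls ion channels and transporters. Sham libraries held 128, 38.1 and 59.2 CPM and Sham_GH libraries 161, 112 and 140.3 CPM. PEL_3d libraries held 115, 74.4 and 102 CPM and PEL_3d_GH libraries 152, 176 and 172 CPM. PEL_10d libraries held 59.7, 41.1 and 61.3 CPM and PEL_10d_GH libraries 95.8, 70.7 and 173 CPM. The GH libraries lay above those without GH on both days, Sham 1 overlapped Sham_GH, and Sham 2 and 3 lay below it. For Sgk1 the log2 fold change with GH was 0.86 ± 0.45 in Sham, or 1.496 ± 0.17 without Sham 1, 0.79 ± 0.14 at day 3 and 1.06 ± 0.29, or 0.62 ± 0.19 without PEL_10d_GH 3, the highest library, at day 10.

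Plin4 encodes a protein that coats lipid droplets. Sham libraries held 5.27, 4.59 and 4.52 CPM and Sham_GH libraries 7.70, 7.63 and 11.2 CPM. PEL_3d libraries held 3.99, 3.91 and 3.14 CPM and PEL_3d_GH libraries 7.27, 7.96 and 8.81 CPM. PEL_10d libraries held 5.22, 4.21 and 7.96 CPM and PEL_10d_GH libraries 6.97, 10.7 and 20.4 CPM. The GH libraries lay above those without GH in Sham and at day 3, and at day 10 the groups overlapped. For Plin4 the log2 fold change with GH was 0.88 ± 0.21 in Sham, or 0.96 ± 0.20 without Sham 1, 1.13 ± 0.17 at day 3 and 1.13 ± 0.38, or 0.60 ± 0.29 without PEL_10d_GH 3, at day 10. Pdk4 encodes a kinase that holds back pyruvate oxidation. Apart from Sham 1 at 18.9 CPM its hypothalamic levels ran from 9.36 to 13.8 CPM, and libraries with and without GH overlapped in Sham and on both days. Its log2 fold change with GH was 0.21 ± 0.14 at day 3, 0.09 ± 0.15, or -0.05 ± 0.16 without PEL_10d_GH 3, at day 10 and -0.27 ± 0.29 in Sham, or 0.12 ± 0.14 without Sham 1.

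Whether the GH difference itself changed from day 3 to day 10 was taken as the difference between both log2 fold changes. For the members this is a description, since both parts chose them. It was -0.68 ± 0.44 for Zbtb16, smaller at day 10, and 0.55 ± 0.35 for Hif3a, larger at day 10. Klf9 had -0.26 ± 0.17, Sgk1 0.29 ± 0.37 and Nr3c1 -0.14 ± 0.08, and the members' median was -0.06. Without PEL_10d_GH 3 these were -1.11 ± 0.37, 0.42 ± 0.37, -0.42 ± 0.15, -0.15 ± 0.26 and -0.12 ± 0.09, in the same order, and the median was -0.22. In edgeR 0 of 15091 genes (0%) passed, with 286 genes higher and 153 lower at an unadjusted p under 0.05, and DESeq2 also called 0. Without PEL_10d_GH 3 edgeR called 0 of 15226 (0%), with 336 and 212.

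The second question is what the stalk lesion did without GH. At day 3 the members stood mostly below Sham, with a median log2 fold change of -0.29, or -0.26 without Sham 1, and at day 10 the median was -0.15, or 0.00 without Sham 1. In PEL_3d Klf9 had 59.3 ± 6.80 CPM (± SD, n = 3) against 132.8 ± 75.1 in Sham, or 89.5 ± 1.26 without Sham 1. Tsc22d3 had 51.3 ± 2.06 CPM against 66.5 ± 16.7 in Sham, or 75.9 ± 5.73 without Sham 1. All PEL_3d libraries lay below all Sham libraries in Klf9, Zbtb16, Klf15 and Plin4, as for 1988 of 14726 genes tested. In Tsc22d3 they lay below Sham 2 and 3 but above Sham 1. Sgk1 lay above Sham 2 and 3 and below Sham 1. It had 97.0 ± 20.6 CPM against 75.2 ± 47.2 in Sham, or 48.7 ± 14.9 without Sham 1.

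At day 3 the log2 fold changes were -1.16 ± 0.38 for Klf9, -1.30 ± 0.50 for Zbtb16, -0.37 ± 0.19 for Tsc22d3 and 0.37 ± 0.45 for Sgk1. Without Sham 1 they were -0.60 ± 0.09, -0.50 ± 0.17, -0.57 ± 0.08 and 0.99 ± 0.19, in the same order. Klf15, Nr3c1 and Plin4 had -0.30 ± 0.11, -0.09 ± 0.12 and -0.37 ± 0.19 with Sham 1 and -0.30 ± 0.12, -0.22 ± 0.07 and -0.31 ± 0.22 without it. Fkbp5, Hif3a and Pdk4 had -0.04 ± 0.18, 0.33 ± 0.27 and -0.27 ± 0.30 with Sham 1 and 0.16 ± 0.09, 0.33 ± 0.30 and 0.11 ± 0.16 without it, so that the signs of Fkbp5 and Pdk4 turned on that library. At day 10 Zbtb16, Klf9 and Sgk1 had -0.87 ± 0.53, -0.63 ± 0.37 and -0.48 ± 0.45 with Sham 1 and -0.07 ± 0.24, -0.06 ± 0.06 and 0.15 ± 0.21 without it. Fkbp5 had -0.39 ± 0.17, or -0.18 ± 0.08 without Sham 1, and Plin4 had 0.27 ± 0.27, or 0.34 ± 0.28. Tsc22d3, Klf15, Nr3c1, Hif3a and Pdk4 had -0.06 ± 0.21, 0.12 ± 0.11, 0.14 ± 0.12, -0.04 ± 0.27 and -0.24 ± 0.29 with Sham 1 and -0.25 ± 0.11, 0.14 ± 0.11, 0.03 ± 0.06, -0.04 ± 0.31 and 0.15 ± 0.15 without it.

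In PEL_3d against Sham edgeR called 1683 of 14726 genes (11.4%), and without Sham 1 6025 of 14887 (40.5%). In PEL_10d against Sham it called 269 of 14610 genes (1.84%), and without Sham 1 1393 of 14790 (9.42%). These counts include any members that passed. The number of members among them is not given, since both comparisons chose the members and share the Sham libraries. In bulk tissue a lower level from fewer cells of a type and one from less RNA per cell cannot be told apart.

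The direct comparison of both lesion days is the difference of 2 comparisons that chose the members, so for them it too is a description, with no test. The transcription factors Klf9 and Klf15, the receptor Nr3c1, Tsc22d3 and Plin4 stood higher at day 10, and the kinase Sgk1 and the co-chaperone Fkbp5 stood lower, each in 3 of 3 libraries compared with every PEL_3d library. The other 3 members overlapped. Of all genes tested 37.9% did not overlap between these groups. Over all genes edgeR (quasi-likelihood, Benjamini-Hochberg adjusted) called 2742 of 14807 (18.5%), a count that includes members.

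Klf9 had 59.3 ± 6.80 CPM at day 3 and 86.0 ± 1.81 at day 10 (± SD, n = 3), a log2 fold change of 0.55 ± 0.08. Klf15 had 13.9 ± 0.406 and 18.8 ± 0.952 CPM, a log2 fold change of 0.45 ± 0.09, and Nr3c1 124 ± 1.74 and 146 ± 1.86 CPM, a log2 fold change of 0.25 ± 0.05. Tsc22d3 had 0.33 ± 0.10, Plin4 0.66 ± 0.25, Sgk1 -0.83 ± 0.18 and Fkbp5 -0.33 ± 0.08, while Zbtb16, Hif3a and Pdk4 had 0.44 ± 0.22, -0.36 ± 0.27 and 0.05 ± 0.14. The members' median was 0.29.

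Leaving out each library in turn, the log2 fold change ran from 0.46 to 0.60 for Klf9, from 0.40 to 0.47 for Klf15, from 0.24 to 0.26 for Nr3c1 and from 0.20 to 0.40 for Tsc22d3. It ran from -0.99 to -0.67 for Sgk1, from -0.36 to -0.29 for Fkbp5 and from 0.37 to 0.85 for Plin4. For Zbtb16 it ran from 0.18 to 0.64 and for Hif3a from -0.55 to -0.19. All genes called came to 1629, 1333 and 1478 without PEL_3d 1, PEL_3d 3 and PEL_10d 2.

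With GH given to both sides, the lesion at day 3 was compared with Sham_GH. This comparison and the one at day 10 are sums and differences of comparisons that chose the members, so their values are again a description. Klf9, Tsc22d3, Klf15 and Nr3c1 stood lower and Fkbp5 higher in PEL_3d_GH, each in 3 of 3 libraries compared with every Sham_GH library. These were 5 of 10 members, where 61.0% of all genes tested did not overlap. Over all genes edgeR called 7679 of 14743 (52.1%). Klf9 stood at 82.8 ± 8.71 against 122 ± 5.52 CPM (± SD, n = 3), a log2 fold change of -0.56 ± 0.08, and Tsc22d3 at 81.2 ± 8.38 against 119 ± 14.96 CPM, a log2 fold change of -0.56 ± 0.10. Klf15 had -0.53 ± 0.12, Nr3c1 -0.18 ± 0.07 and Fkbp5 0.45 ± 0.10. Tsc22d3 and Fkbp5 thus lay on opposite sides of Sham_GH.

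The other 5 members overlapped in PEL_3d_GH and Sham_GH. Zbtb16 had 0.50 ± 0.25, Sgk1 0.27 ± 0.12, Pdk4 0.19 ± 0.14, Hif3a -0.41 ± 0.19 and Plin4 -0.15 ± 0.18. Single libraries weighed on some of these. Zbtb16 had 0.87 without Sham_GH 3 and 0.22 without Sham_GH 1. Hif3a had -0.59 without Sham_GH 1 and -0.21 without Sham_GH 3. Sgk1 had 0.39 without Sham_GH 1 and 0.14 without Sham_GH 2. The members' median was -0.16.

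At day 10 with GH the members stood near Sham_GH, with a median log2 fold change of -0.09, or -0.18 without PEL_10d_GH 3, and every member overlapped between the groups, or 6 of 10 without PEL_10d_GH 3, where the other 4 lay below. Of all genes tested 45.9% did not overlap, or 52.1% without PEL_10d_GH 3. Over all genes edgeR called 4547 of 14686 (31.0%), or 3445 of 14802 (23.3%) without PEL_10d_GH 3. Tsc22d3 stood at 94.1 ± 14.1 CPM (± SD, n = 3) in PEL_10d_GH, or 86.2 ± 5.17 without PEL_10d_GH 3, against 119 ± 14.96 in Sham_GH, with 2 of 3 libraries below every Sham_GH library. Its log2 fold change was -0.34 ± 0.11, or -0.46 ± 0.10 without PEL_10d_GH 3. Klf9, Sgk1 and Plin4 had -0.28 ± 0.11, -0.28 ± 0.26 and 0.52 ± 0.33, and -0.43 ± 0.08, -0.72 ± 0.16 and 0.00 ± 0.23 without PEL_10d_GH 3. Zbtb16, Fkbp5 and Pdk4 had 0.26 ± 0.38, 0.19 ± 0.19 and 0.12 ± 0.15, and -0.17 ± 0.35, -0.10 ± 0.12 and -0.02 ± 0.15 without it, so that their signs turned on that library. Hif3a, Klf15 and Nr3c1 had -0.23 ± 0.23, -0.10 ± 0.10 and -0.08 ± 0.06, and -0.36 ± 0.26, -0.19 ± 0.10 and -0.06 ± 0.07 without it. Leaving out other libraries moved some values the other way. Sgk1 had -0.04 without PEL_10d_GH 2, and without PEL_10d_GH 1 Plin4 had 0.82 and Hif3a -0.02.

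The lesion was also compared with Sham in the hippocampus, at day 10. Zbtb16 stood at 10.7, 43.7 and 48.5 CPM in HIP_Sham 1, 2 and 3 and at 42.0, 51.5 and 49.2 in HIP_PEL_10d. Sgk1 stood at 29.1, 112 and 138 CPM in HIP_Sham and at 83.2, 71.3 and 81.1 in HIP_PEL_10d. HIP_Sham 1, the library with hypothalamic transcripts, was the lowest for both, and the other Sham libraries overlapped the lesion group in Zbtb16 and lay above it in Sgk1. The log2 fold change of Sgk1 was -0.26 ± 0.52, or -0.69 ± 0.11 without HIP_Sham 1, and that of Zbtb16 was 0.45 ± 0.52, or 0.03 ± 0.10. Klf9 had 0.12 ± 0.41, or -0.24 ± 0.07 without HIP_Sham 1, so that its sign turned on this library. Tsc22d3, Klf15 and Nr3c1 had -0.27 ± 0.10, 0.18 ± 0.13 and -0.08 ± 0.09 with HIP_Sham 1 and -0.20 ± 0.08, 0.29 ± 0.11 and -0.07 ± 0.08 without it. Fkbp5, Hif3a and Pdk4 had 0.15 ± 0.30, -0.64 ± 0.30 and -0.16 ± 0.26 with it and -0.14 ± 0.07, -0.46 ± 0.30 and -0.39 ± 0.15 without it. Plin4 had -1.13 ± 0.54, or -0.91 ± 0.52 without HIP_Sham 1, on levels of 2.26, 0.811 and 0.722 CPM in HIP_PEL_10d.

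The members' median in the hippocampus was -0.12, or -0.22 without HIP_Sham 1. In edgeR 0 of 14039 genes (0%) passed, with 510 genes higher and 924 lower at an unadjusted p under 0.05, while DESeq2 called 200 genes. Without HIP_Sham 1 edgeR called 873 of 14191 genes (6.15%). The comparison chose the members, so their values are a description. Choroid plexus markers moved with it: their sum, led by Ttr, was 4355 and 5457 FPKM in HIP_Sham 2 and 3 and 136, 39.8 and 803 in HIP_PEL_10d, with 0 of 8 called by edgeR with HIP_Sham 1, 7 of 8 lower without it and none at 0. Without HIP_Sham 1 edgeR also called 2 of 5 blood and 1 of 6 astrocyte markers higher. Of 10 hippocampus markers it called 2 higher and 2 lower. With HIP_Sham 1 it called 0 in each of these lists. The part of these markers in the result was not tested.

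Between the tissues, at day 10 after the lesion and without GH, the members were compared in a way that the choice of members did not use, although it used these libraries. This is the only comparison in which members are tested. Since the choice drew on the same libraries, its p-values are not independent of the choice. Zbtb16, Klf9, Fkbp5 and Sgk1 were lower in the hypothalamus than in the hippocampus, and Plin4, Tsc22d3 and Nr3c1 were higher, each in 3 of 3 libraries compared with every library of the other tissue. These were 7 of 10 members, beside 8822 of 14561 genes (60.6%), a share close to that of all genes, of which 68.3% did not overlap. Klf9 stood at 86.0 ± 1.81 against 216 ± 18.5 CPM (± SD, n = 3), a log2 fold change of -1.35 ± 0.07 (edgeR quasi-likelihood, Benjamini-Hochberg adjusted p = 5.66e-07). Zbtb16 stood at 9.11 ± 2.88 against 47.6 ± 4.94 CPM, a log2 fold change of -2.41 ± 0.19 (edgeR quasi-likelihood, Benjamini-Hochberg adjusted p = 6.49e-06). Plin4 stood at 5.80 ± 1.94 against 1.26 ± 0.864 CPM, a log2 fold change of 2.16 ± 0.43 (edgeR quasi-likelihood, Benjamini-Hochberg adjusted p = 0.00194). Fkbp5 had -1.09 ± 0.07, Sgk1 -0.56 ± 0.14, Tsc22d3 0.36 ± 0.10 and Nr3c1 0.30 ± 0.07, and the median was -0.08.

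Tissue and member level cannot be told apart from the libraries' cell make-up here. All 9 hypothalamic neuron markers tested were higher and 9 of 10 hippocampus markers lower in PEL_10d than in HIP_PEL_10d. Tsc22d3 did not pass without HIP_PEL_10d 1 or without HIP_PEL_10d 2, where its log2 fold changes were 0.30 and 0.33, and Sgk1 did not pass in a single fit over all groups. Hif3a, Klf15 and Pdk4 had 0.04 ± 0.27, 0.05 ± 0.10 and -0.19 ± 0.13 and did not pass.

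A wider list of 24 other genes known to be induced by glucocorticoids was counted in the same fits. It was written with earlier results of these data known, so its counts describe these genes and are no independent view of the class. Every count of calls on this list and on the lists after it stands beside the share of all genes called in that comparison: 0%, 0.0270% and 0% with GH in Sham, at day 3 and at day 10, 11.4% and 1.84% in PEL_3d and PEL_10d against Sham, 18.5% from day 3 to day 10, 52.1% and 31.0% in PEL_3d_GH and PEL_10d_GH against Sham_GH, 0% in the hippocampus and 60.6% between the tissues. Without Sham 1 it was 1.09% in Sham_GH, 40.5% in PEL_3d and 9.42% in PEL_10d, without HIP_Sham 1 it was 6.15% in the hippocampus, and without PEL_10d_GH 3 it was 0% at day 10 with GH and 23.3% in PEL_10d_GH against Sham_GH. With GH, 20 of 24 genes of the wider list had a positive log2 fold change at day 3 and 23 of 24 at day 10, with medians of 0.29 and 0.34, where 51.6% and 50.3% of all genes were positive. Without PEL_10d_GH 3 22 of 24 were positive at day 10, with a median of 0.24 (49.4% of all genes). In Sham_GH 15 of 23 were positive with a median of 0.18 (48.3% of all genes), or 21 of 24 with 0.29 without Sham 1 (49.3%). Fam107a, which encodes an actin-associated protein of neurons, rose at day 3. It stood at 173, 178 and 177 CPM in PEL_3d and at 249, 255 and 264 in PEL_3d_GH, a log2 fold change of 0.55 ± 0.06 (edgeR quasi-likelihood, Benjamini-Hochberg adjusted p = 0.0469), higher in 3 of 3 libraries. This call was lost without PEL_3d 1, PEL_3d 2, PEL_3d 3, PEL_3d_GH 1 or PEL_3d_GH 2, and without PEL_3d_GH 3 the list had 4 calls. At day 10 edgeR called 0 of 24, with 13 at an unadjusted p under 0.05 and 2 called by DESeq2, and also 0 without PEL_10d_GH 3, with 12 at an unadjusted p under 0.05. In Sham_GH it called 0 of 23, with 5 and 0. Without Sham 1 Arrdc2, Per1 and Fam107a passed in Sham_GH, at 1.09 ± 0.19, 0.61 ± 0.10 and 0.39 ± 0.08, where with it they had 0.79 ± 0.28, 0.58 ± 0.12 and 0.18 ± 0.19.

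With the lesion the wider list went both ways against Sham_GH and from day 3 to day 10. Against Sham, genes of the list passed as lower only at day 3, and only in some fits, such as that without Sham 1. In PEL_3d against Sham 6 of 24 rose by edgeR, with Lcn2, Anxa1 and Cdkn1a at 5.08 ± 0.46, 2.29 ± 0.28 and 1.51 ± 0.14, or 4.72 ± 0.39, 2.03 ± 0.17 and 1.51 ± 0.14 without Sham 1. Without Sham 1 11 rose and 5 fell, the latter led by Rasd1, Sult1a1 and Fam107a at -0.67 ± 0.20, -0.51 ± 0.15 and -0.48 ± 0.07, where with it they had -1.76 ± 0.65, -0.37 ± 0.17 and -0.68 ± 0.18. Lcn2 encodes an iron-carrier protein and Anxa1 an anti-inflammatory annexin, and both are known to respond to inflammation as well. In PEL_10d against Sham Anxa1 alone rose, at 2.16 ± 0.31, or 1.92 ± 0.21 without Sham 1, a call lost without PEL_10d 1, PEL_10d 3, Sham 2 or Sham 3, and without Sham 1 5 of 24 rose. From day 3 to day 10 3 rose, with Sult1a1 at 0.95 ± 0.17, and 9 fell, with Lcn2 at -2.15 ± 0.53, Angptl4 at -1.47 ± 0.29 and Cebpd at -1.38 ± 0.14. Against Sham_GH 11 rose and 4 fell in PEL_3d_GH, beside 52.1% of all genes called, and 10 rose and 2 fell in PEL_10d_GH, beside 31.0%, with Lcn2 at 3.35 ± 0.53 and 3.43 ± 0.36 and Arrdc2 at -0.79 ± 0.17 and -0.67 ± 0.17. Without PEL_10d_GH 3 7 rose and 1 fell in PEL_10d_GH, beside 23.3%, with Lcn2 and Arrdc2 at 3.47 ± 0.39 and -0.77 ± 0.19. In the hippocampus edgeR called 0 of 23, with 1 at an unadjusted p under 0.05 and 0 by DESeq2, and without HIP_Sham 1 also 0, with 4 at an unadjusted p under 0.05. Between the tissues 6 were higher in the hypothalamus and 11 lower, with Anxa1 at 3.80 ± 0.22 and Gpd1 at -3.06 ± 0.07.

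Around Nr3c1, 12 of 14 listed genes for the other corticosteroid receptor, chaperones, coactivators and steroid handling were tested. With GH edgeR called 0 of 12 at day 3, at day 10 and in Sham_GH, with 0, 1 and 0 at an unadjusted p under 0.05 and 0 by DESeq2 in each, and without Sham 1 the chaperone cofactor Stip1 fell in Sham_GH, at -0.40 ± 0.06, where with it Stip1 had -0.19 ± 0.21. In PEL_3d against Sham it called 0, with 4 at an unadjusted p under 0.05 and 2 by DESeq2. Without Sham 1 8 fell, led by Stip1 at -0.62 ± 0.08 and Hsp90aa1 at -0.51 ± 0.10, and the efflux pump gene Abcb1a rose, at 0.27 ± 0.09, where with it the 3 had -0.40 ± 0.21, -0.39 ± 0.16 and 0.38 ± 0.13. In PEL_10d 0 passed with Sham 1, with 1 at an unadjusted p under 0.05 and 0 by DESeq2, and 3 fell without it. In PEL_3d_GH against Sham_GH 7 of 12 fell, among them Hsd11b1, which regenerates active hormone, at -0.55 ± 0.19 and the mineralocorticoid receptor gene Nr3c2 at -0.53 ± 0.08. In PEL_10d_GH 4 fell and Abcb1a rose, at 0.60 ± 0.12, and without PEL_10d_GH 3 1 fell and Abcb1a rose, at 0.46 ± 0.10. Nr3c2 rose from day 3 to day 10, at 0.40 ± 0.09, and was lower in the hypothalamus than in the hippocampus, at -3.11 ± 0.09, where 3 of the 12 were higher and 7 lower. In the hippocampus edgeR called 0 of 12, with 1 at an unadjusted p under 0.05 and 0 by DESeq2, and without HIP_Sham 1 Hsp90aa1 fell, at -0.36 ± 0.07, where with it Hsp90aa1 had -0.29 ± 0.13.

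Of 6 genes of the stress axis peptides and their receptors, edgeR called 0 with GH at day 3, day 10 and in Sham_GH, with 0, 3 and 1 at an unadjusted p under 0.05 and 0 by DESeq2 in each. Avp, the vasopressin gene, had -2.76 ± 0.19 in PEL_3d and -1.38 ± 0.22 in PEL_10d without Sham 1, where it fell, and it rose from day 3 to day 10, at 1.38 ± 0.19. With Sham 1 Avp had -2.16 ± 1.36 and -0.79 ± 1.31, and edgeR called 0 of 6 at either day, with 1 and 0 at an unadjusted p under 0.05 and 0 by DESeq2. Pomc also fell and Crhbp rose in PEL_3d without Sham 1, at -0.76 ± 0.15 and 0.49 ± 0.17, where with it they had -0.16 ± 1.14 and 0.05 ± 0.33. Against Sham_GH 4 fell in PEL_3d_GH, Avp, Crhr1, Crhbp and Crhr2, and Crh rose in PEL_10d_GH, at 1.73 ± 0.29, or 1.83 ± 0.32 without PEL_10d_GH 3. Pomc stood at 51.6, 57.4 and 35.6 CPM in Sham_GH and at 23.0, 29.3 and 5301 in PEL_10d_GH 1, 2 and 3, and its direction turned on PEL_10d_GH 3. It passed as higher with that library, at 5.20 ± 1.70, and as lower without it, at -0.88 ± 0.18. In the hippocampus edgeR called 0 of 5, with 2 at an unadjusted p under 0.05 and 1 by DESeq2, and Crhr2 fell without HIP_Sham 1, at -1.60 ± 0.35, where with it Crhr2 had -1.69 ± 0.35. Between the tissues 3 were higher and 2 lower in the hypothalamus.

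Among 4 genes of the GH response, Socs2, a feedback inhibitor of the GH receptor, stood at 6.92, 8.86 and 6.89 CPM in PEL_3d and at 17.2, 16.2 and 16.6 in PEL_3d_GH. All 3 GH libraries lay above, a log2 fold change of 1.15 ± 0.14 (edgeR quasi-likelihood, Benjamini-Hochberg adjusted p = 0.0469). That call was lost without PEL_3d 1, PEL_3d 3, PEL_3d_GH 1 or PEL_3d_GH 2. At day 10 it stood at 7.56, 4.32 and 6.89 CPM without GH and at 9.05, 4.85 and 18.02 with GH, with overlap, and edgeR called 0 of 4, with 0 at an unadjusted p under 0.05 and 0 by DESeq2. The same PEL_10d_GH 3 that was highest in Zbtb16 was highest in Socs2. In Sham_GH edgeR called 0 of 4, with 1 and 0, and also 0 without Sham 1, with 2 at an unadjusted p under 0.05. Igf1 rose with the lesion, at 2.22 ± 0.21 in PEL_3d and 2.07 ± 0.32 in PEL_10d against Sham, or 2.34 ± 0.18 and 2.19 ± 0.32 without Sham 1, the day 10 call lost without PEL_10d 1, PEL_10d 3, Sham 2 or Sham 3, and at 2.60 ± 0.26 and 1.78 ± 0.29 against Sham_GH, the latter 1.63 ± 0.30 without PEL_10d_GH 3. The receptor gene Ghr fell in PEL_3d_GH against Sham_GH, at -0.29 ± 0.10. From day 3 to day 10 edgeR called 0 of 4 and in the hippocampus 0 of 4, each with 0 at an unadjusted p under 0.05 and 0 by DESeq2, and between the tissues 3 were higher and 1 lower.

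Clock genes, of which Per1 is also on the wider glucocorticoid list, were looked at because time of day moves many of the members and the labels give no hour. With GH edgeR called 0 of 12 at day 3, with 2 at an unadjusted p under 0.05 and 0 by DESeq2, and 0 at day 10, with 3 and 0. In Sham_GH it called 0, with 7 and 1, and without Sham 1 Dbp, Per1 and Nr1d1 rose, at 0.85 ± 0.10, 0.61 ± 0.10 and 0.52 ± 0.08, where with it they had 1.01 ± 0.18, 0.58 ± 0.12 and 0.63 ± 0.13. In PEL_3d_GH against Sham_GH 11 of 12 fell, with Ciart at -0.81 ± 0.16 and Nr1d1 at -0.81 ± 0.09, where Klf9, Klf15 and Tsc22d3 also stood lower. In PEL_10d_GH 8 of 12 fell, with Dbp at -0.77 ± 0.13, or 6 of 12 without PEL_10d_GH 3, with Dbp at -0.69 ± 0.13. In PEL_3d against Sham edgeR called 0, with 6 at an unadjusted p under 0.05 and 4 by DESeq2, and 8 fell without Sham 1. In PEL_10d it called 0, with 0 and 0, and 0 without Sham 1, with 1 at an unadjusted p under 0.05. Hlf, Nr1d1 and Tef rose from day 3 to day 10, at 0.50 ± 0.09, 0.36 ± 0.08 and 0.21 ± 0.06. In the hippocampus edgeR called 0 of 12, with 4 and 1, and Npas2 and Nr1d1 rose without HIP_Sham 1, at 0.85 ± 0.09 and 0.65 ± 0.11 against 0.96 ± 0.12 and 0.48 ± 0.17 with it, and between the tissues 3 were higher and 6 lower. Their part in the members' differences was not tested.

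Markers of glia, vessels and blood moved with the lesion comparisons. Microglia and macrophage markers, led by Csf1r or Cd68 and none at 0, summed to 77.0, 78.5 and 70.2 FPKM in Sham, 393, 367 and 435 in PEL_3d and 196, 159.6 and 195 in PEL_10d. With GH they summed to 54.3, 69.8 and 54.8 FPKM in Sham_GH, 476, 452 and 343 in PEL_3d_GH and 222, 269 and 230.5 in PEL_10d_GH. All 6 rose by edgeR's test in PEL_3d against Sham and in both lesion groups with GH against Sham_GH, and 6 of 6 fell from day 3 to day 10, whichever library was left out. In PEL_10d against Sham 4 of 6 rose, also without Sham 1, but 3 of 6 without PEL_10d 2 and 0 of 6 without PEL_10d 1, PEL_10d 3, Sham 2 or Sham 3. Oligodendrocyte markers, led by Mbp and none at 0, summed to 2207, 2189 and 2289 FPKM in PEL_3d, 3321, 3149 and 3334 in PEL_10d, 2367, 2162 and 2565 in PEL_3d_GH, 3831, 4158 and 3702 in PEL_10d_GH and 2245, 2059.7 and 2297 in Sham_GH. All 6 rose from day 3 to day 10, or 4 of 6 without PEL_3d 1 and 0 in a single fit over all groups. All 6 rose in PEL_10d_GH against Sham_GH, also without PEL_10d_GH 3, and 1 of 6 in PEL_3d_GH against Sham_GH. Against Sham 0 of 6 passed in PEL_3d, or 1 rose without Sham 1, and in PEL_10d 0, or 3 rose without Sham 1, with 5569.9, 1934 and 2709 FPKM in Sham. Their part in the members' differences was not tested.

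Endothelium markers, led by Itm2a or Ly6c1, summed to 139, 142 and 132 FPKM in Sham_GH, 206, 219.7 and 171 in PEL_3d_GH and 179.8, 200.1 and 196 in PEL_10d_GH, and 5 of 7 rose in each of these lesion groups, with 1 that fell at day 3. They summed to 153, 144 and 143 FPKM in Sham, 207, 211 and 229 in PEL_3d and 197, 172 and 211 in PEL_10d. In PEL_3d against Sham 4 of 7 rose, or 5 without Sham 1 and 1 without PEL_3d 1, PEL_3d 3, Sham 2 or Sham 3. In PEL_10d 0 passed, or 4 rose without Sham 1, and 2 of 7 fell from day 3 to day 10. Astrocyte markers, led by Slc1a3 or Aqp4, and by Slc1a2 in Sham 1, summed to 543, 533 and 537 FPKM in Sham_GH, 649.8, 661 and 589.5 in PEL_3d_GH and 646, 765 and 649.8 in PEL_10d_GH, with 3 rising and 2 falling of 6 at day 3 and 2 rising at day 10. Without GH they summed to 538, 522 and 515 FPKM in Sham, 597, 554 and 558 in PEL_3d and 636, 646 and 648 in PEL_10d. Against Sham 3 of 6 rose in PEL_3d, or 3 rose and 3 fell without Sham 1, and in PEL_10d 1 rose, or 2 without Sham 1 and 0 without any other single library. Blood markers, led by Hbb-bs, summed to 21.8, 18.04 and 17.1 FPKM in Sham_GH, 31.4, 17.5 and 57.7 in PEL_3d_GH and 213, 66.2 and 44.9 in PEL_10d_GH, with 2 of 4 rising at day 3 and 5 of 5 at day 10. Without GH they summed to 42.9, 30.1 and 17.8 FPKM in Sham, 27.9, 15.5 and 21.1 in PEL_3d and 26.3, 42.0 and 126 in PEL_10d, and 0 of 4 passed in PEL_3d or PEL_10d against Sham, with or without Sham 1. Without PEL_10d_GH 3, which had the lowest blood sum of its group, 4 of 7 endothelium, 2 of 6 astrocyte and 5 of 5 blood markers rose at day 10. None of these genes was at 0.

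Neuron markers moved too. The hypothalamic neuron markers, of which Avp is also on the stress axis list, were led by Pmch, had none at 0 in the hypothalamic libraries other than Sham 1 and summed to 842, 1219 and 1192 FPKM in Sham_GH, 850.1, 854 and 1169.8 in PEL_3d_GH and 1152, 1673 and 1159 in PEL_10d_GH. Against Sham_GH 5 of 10 fell in PEL_3d_GH and 3 of 10 in PEL_10d_GH. Without GH they summed to 825, 965 and 885 FPKM in PEL_3d and 872, 1140.1 and 1008 in PEL_10d, against 8.39, 1308 and 1277 in Sham. With Sham 1 0 of 10 passed on either day, and without it 7 of 10 fell in PEL_3d and 3 of 10 in PEL_10d. Anterior pituitary markers, led by Cga, summed to 16.5, 10.6 and 16.2 FPKM in Sham_GH and 9.29, 26.3 and 76.8 in PEL_10d_GH, and 2 of 4 tested rose, Gh and Prl, or Gh alone without PEL_10d_GH 3. In PEL_3d and PEL_10d against Sham 0 of 3 passed, and without Sham 1 2 of 6 fell in PEL_3d and 0 of 4 passed in PEL_10d. Hippocampus markers summed to between 34.5 and 48.8 FPKM in the 17 libraries without Sham 1, with 1 rise and 2 falls of 8 in PEL_3d_GH and 1 each in PEL_10d_GH. Choroid plexus markers summed to between 11.1 and 28.5 FPKM in these libraries, with 1 rise and 2 falls of 8 in PEL_3d_GH and 1 each in PEL_10d_GH. Without PEL_10d_GH 3 the counts of the hypothalamic neuron, hippocampus and choroid plexus markers in PEL_10d_GH were the same. Against Sham 0 of 8 hippocampus and 0 of 8 choroid plexus markers passed in PEL_3d and in PEL_10d. Without Sham 1 2 hippocampus markers rose and 2 fell and 1 choroid plexus marker rose and 2 fell in PEL_3d, and 1 hippocampus marker rose in PEL_10d. From day 3 to day 10 2 hypothalamic neuron, 3 choroid plexus, 3 astrocyte and 1 blood marker rose. The part of these markers in the members' differences was not tested.

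In the GH comparisons few genes of any kind passed, as given above. Over all 9 lists edgeR called 0 of 58 marker genes in PEL_3d_GH against PEL_3d, with 6 at an unadjusted p under 0.05 and 0 by DESeq2. It called 0 of 59 in PEL_10d_GH against PEL_10d, with 17 at an unadjusted p under 0.05 and 6 by DESeq2, of which 3 were oligodendrocyte and 2 microglia markers, and 0 of 59 without PEL_10d_GH 3, with 19 at an unadjusted p under 0.05. The receptor, stress axis, GH response and clock lists had 0 calls at day 10 without PEL_10d_GH 3 as well. In Sham_GH against Sham it called 0 of 56, with 8 and 0, and 2 of 59 without Sham 1, both of the endothelium. The part of the markers in the members' levels with GH was not tested.

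To find the genes whose levels ran most like the members', the mean z-score of the 9 members other than Nr3c1 on log2 FPKM was taken in each of the 17 hypothalamic libraries without Sham 1, which share groups and sequencing depth. It was highest in PEL_10d_GH 3, at 1.53, and lowest in PEL_3d 2, at -0.94, and all GH libraries had at least -0.07 where all libraries without GH had at most -0.28. On CPM, an alternative chosen after seeing that the FPKM of some members do not track their counts, it ran from -1.02 in PEL_3d 3 to 1.54 in PEL_10d_GH 3, with at least -0.12 with GH and at most -0.26 without. The comparisons with GH chose the members, so the choice favoured this split and nothing is read from it. Genes ranked by their likeness to this mean carry the same limit. Against this mean, the members' own Pearson r on FPKM ran from 0.587 for Pdk4 to 0.917 for Zbtb16 and 0.920 for Plin4, and Nr3c1 had -0.448. Each of the 9 members is part of this mean, which raises its r, so these values are not comparable with those of other genes. Hif3a had 0.833 on FPKM and 0.919 on CPM, and Sgk1 0.630 and 0.723. Of 13385 other genes Rhou had the highest r, 0.885 on FPKM and 0.895 on CPM, followed by Plekhf1 at 0.883 and 0.882 and Mycl at 0.814 and 0.819. Adipor2, at 0.804 and 0.807, and Fam107a, at 0.757 and 0.796, were also among the 10 highest on both. The other 5 of the 10 depended on the measure: Kcnn2, Lrrc8a, Tekt4, Sgms1 and Fzd4 on FPKM, and Arid5b, Clk4, Klf13, Fzd1 and Arrdc2 on CPM. With each group's mean taken away, so that only differences between libraries of a group count, 3 of the 10 were shared: Slc2a1 at 0.908 on FPKM and 0.919 on CPM, Hbp1 at 0.817 and 0.871, and Ddx10 at 0.793 and 0.844. Much of this rested on PEL_10d_GH 3. Without it, an alternative also chosen after seeing the data, 7 of the 10 by level on FPKM were kept, now led by Kcnn2 at 0.908, Mycl at 0.860, Plekhf1 at 0.846 and Rhou at 0.840, over 16 libraries and 13378 genes. By deviation from group means 0 of the 10 were kept, and Slc2a1, Hbp1 and Ddx10 ranked 13, 17 and 107. These are descriptions without a test.

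On build GRCm38 the members lie on 8 chromosomes, with Fkbp5 and Plin4 on chromosome 17 and Klf15 and Pdk4 on chromosome 6. Fkbp5 (ENSMUSG00000024222) lies at 28399094 to 28517527 and Plin4 (ENSMUSG00000002831) at 56100591 to 56109803 on chromosome 17, and Klf15 (ENSMUSG00000030087) at 90462576 to 90475238 and Pdk4 (ENSMUSG00000019577) at 5483351 to 5496309 on chromosome 6. Zbtb16 (ENSMUSG00000066687) lies at 48654297 to 48836222 on chromosome 9, Hif3a (ENSMUSG00000004328) at 17031507 to 17062427 on chromosome 7 and Sgk1 (ENSMUSG00000019970) at 21882184 to 21999903 on chromosome 10. Klf9 (ENSMUSG00000033863) lies at 23141226 to 23168134 on chromosome 19 and Tsc22d3 (ENSMUSG00000031431) at 140539528 to 140600659 on chromosome X. Nr3c1 is listed as ENSMUSG00000024431. The pairs on chromosomes 17 and 6 lie megabases apart, so no member neighbours another.

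Since the glucocorticoid receptor binds DNA, the members' promoters were searched for the letters of the glucocorticoid response element in RefSeq windows from 250 bases before to 50 after each gene start (build GRCm38.p6). The short sites are AGAACA and TGTTCT, which are reverse complements, so both strands are covered, and the full element is AGAACA, any 3 bases, then TGTTCT. Windows were found for 8 members, 15 windows in all, and none was listed for Zbtb16 or Nr3c1. A short site lay in 4 windows of 2 members, Sgk1 and Tsc22d3, and the full element in 1 window, of Sgk1. Over all 32851 promoter windows 19% held a short site and 0.00913%, or 3 windows, the full element. Sgk1 had 6 windows and Tsc22d3 3. A match in these letters is a description and was not measured as binding. The windows shown are the Sgk1 window with the full element, chr10:21993640-21993939 on the plus strand, with matches at -242, -189 and -180 from the gene start, and the Tsc22d3 window with a match at -185, chrX:140600473-140600772 on the minus strand. Each is written 5′ to 3′ with the short sites in capitals.
Sgk1: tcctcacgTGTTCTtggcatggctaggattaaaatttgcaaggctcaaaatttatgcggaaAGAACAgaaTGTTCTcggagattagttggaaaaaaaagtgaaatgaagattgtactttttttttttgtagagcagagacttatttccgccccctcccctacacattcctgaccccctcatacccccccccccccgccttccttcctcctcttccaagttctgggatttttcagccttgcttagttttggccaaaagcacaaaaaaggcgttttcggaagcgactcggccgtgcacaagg
Tsc22d3: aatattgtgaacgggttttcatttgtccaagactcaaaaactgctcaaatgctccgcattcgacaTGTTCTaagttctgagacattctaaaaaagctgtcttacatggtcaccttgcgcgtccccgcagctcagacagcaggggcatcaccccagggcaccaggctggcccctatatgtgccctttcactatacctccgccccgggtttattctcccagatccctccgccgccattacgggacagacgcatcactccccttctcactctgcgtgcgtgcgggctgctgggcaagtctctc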

How the data were processed

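RNA was sequenced in 24 libraries of mouse hypothalamus and hippocampus, 3 for each of 8 groups. The authors deposited estimated counts per gene, of which 8.22% are not whole, and deposited FPKM values per gene that they had scaled by gene length and library size. The submitters' notes name the builds GRCm38 and mm10. Of 22274 gene identifiers 22219 matched a symbol, and 3339 genes had no count. The members and the gene and marker lists were chosen with earlier results of these data known. Counts were rounded, filtered with filterByExpr (minimum count 10), scaled by TMM and tested for each comparison on its own 2 groups with edgeR 4.0.16 in R 4.3.3 (quasi-likelihood test, Benjamini-Hochberg over all genes tested, threshold 0.05). Summaries used Python 3.11.15, pandas 2.3.3, numpy 2.4.6 and matplotlib 3.10.9. Named genes were the members and, from each other list, up to 3 rises and 3 falls with the largest log2 fold change among genes that passed. Genes most like the members were the 10 with the highest Pearson r on log2(FPKM + 0.1) among genes with a mean of at least 1 FPKM, with a pseudocount of 1 and a minimum of 0.1 as alternatives, and CPM in place of FPKM, and leaving out PEL_10d_GH 3, as alternatives chosen after seeing the data. The edgeR fit was tested on simulated data for PEL_3d_GH against PEL_3d only. Alternatives were DESeq2 1.42.0, its size factors in edgeR, no filter, the replicate number as a block, a filter at a mean count of 50, a single fit over all groups, and leaving out each library. Total counts per library ran from 15095267 to 17973494.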

Additional observations from a re-analysis of the deposited data

Results flagged for a closer look

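Klf15 lay below Sham at day 3 and, by a narrow margin, above it at day 10. The lowest PEL_10d library held 18.15 CPM and the highest Sham library 17.95. Every PEL_3d library (13.6 to 14.4 CPM) lay below every Sham library (16.2 to 17.9 CPM), and every PEL_10d library (18.2 to 19.9 CPM) lay above, with a log2 fold change against Sham of -0.30 ± 0.11 at day 3 and 0.12 ± 0.11 at day 10, or -0.30 ± 0.12 and 0.14 ± 0.11 without Sham 1. Of all genes tested 1988 of 14726 lay wholly below Sham at day 3, and 1718 of 14610 wholly above Sham at day 10. These shares are for each day alone, and the share of genes that did both is not given. Both comparisons chose the members and share the Sham libraries, so the Klf15 values are a description. PEL_10d set directly against PEL_3d is the difference between them and had 0.45 ± 0.09, which follows from the same values and was not tested for the members.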

How the results depend on the processing

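Of the counts and medians that answer a comparison, 380 values under the alternatives stayed within the margin set for them and 76 moved beyond it. Of 478 values of single members in the 4 comparisons that the choice of members did not name, 427 kept their direction and side of the threshold, 29 lost a call, 12 gained one and 10 reversed. Only the comparison between the tissues is read as a test of members, although the choice used its libraries too. In the comparisons that the choice used, where members have no test, 833 of 876 values kept their sign and 43 had the other sign, and 9 moved by more than the spread between libraries.

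DESeq2 called 11 genes in Sham_GH against Sham (0 by edgeR), 57 in PEL_3d_GH against PEL_3d (4), 41 in PEL_10d_GH against PEL_10d (0), 2754 in PEL_3d against Sham (1683), 701 in PEL_10d against Sham (269) and 200 in HIP_PEL_10d against HIP_Sham (0). Of the other glucocorticoid-induced genes it called 4, 2, 11 and 3 in PEL_3d_GH, PEL_10d_GH, PEL_3d and PEL_10d (1, 0, 6 and 1 by edgeR). With no filter 8 genes were called in PEL_3d_GH against PEL_3d. With a mean count of at least 50 Hif3a gave no value in PEL_3d, PEL_10d or HIP_PEL_10d against Sham, in PEL_10d against PEL_3d or between the tissues, and Plin4 gave none in HIP_PEL_10d against HIP_Sham.

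A single fit over all groups, which was not run for HIP_PEL_10d against HIP_Sham, called 7 genes in Sham_GH against Sham, 0 in PEL_3d_GH against PEL_3d, 4476 in PEL_3d and 982 in PEL_10d against Sham, 1531 in PEL_10d against PEL_3d (2742 on its own groups) and 1957 in PEL_10d_GH against Sham_GH (4547). Of the other glucocorticoid-induced genes it called 0 in PEL_3d_GH against PEL_3d, 13 and 2 in PEL_3d and PEL_10d against Sham, 7 in PEL_10d against PEL_3d (12) and 6 in PEL_10d_GH against Sham_GH (12).

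With the replicate number as a block, edgeR called 1 gene in PEL_3d_GH against PEL_3d, 980 in PEL_3d against Sham and 0 in PEL_10d against Sham, with 0 of the other glucocorticoid-induced genes in PEL_3d_GH against PEL_3d and in PEL_10d against Sham. The block raised the count in PEL_10d against PEL_3d, to 3367 from 2742. It also rose in PEL_3d_GH and PEL_10d_GH against Sham_GH, to 7746 and 4568 from 7679 and 4547. Same-numbered libraries did not correlate above 0.1 in all 3 pairs of any comparison. The numbers thus gave no sign of a pairing, which does not exclude one, and the block is a check only.

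Leaving out each library in turn, the genes called ran from 0 to 159 in Sham_GH against Sham, from 1 to 56 in PEL_3d_GH against PEL_3d, from 821 to 6025 in PEL_3d and from 0 to 1393 in PEL_10d against Sham, from 0 to 873 in HIP_PEL_10d against HIP_Sham and from 1333 to 2800 in PEL_10d against PEL_3d. The other glucocorticoid-induced genes called ran from 0 to 3 in Sham_GH against Sham, 0 to 4 in PEL_3d_GH against PEL_3d, 4 to 16 in PEL_3d and 0 to 5 in PEL_10d against Sham, and 7 to 12 in PEL_10d_GH against Sham_GH. The members' median ran from 0.31 to 0.65 in Sham_GH against Sham and from -0.22 to -0.056 in PEL_10d against HIP_PEL_10d.

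PEL_10d against PEL_3d and both lesion groups with GH against Sham_GH are sums and differences of comparisons that chose the members. Member calls there are not read as tests, and nothing is concluded from their excess or lack. They stand here beside the share of all genes called in the same fit. In PEL_10d against PEL_3d they were 6 of 10 (18.5% of all genes), 1 in a single fit over all groups (10.1%) and 3 to 7 when each library was left out (8.91% to 18.8%). In PEL_3d_GH against Sham_GH they were 4 (52.1%), and 2 in a single fit (39.0%). With the replicate block 2 were higher and 4 lower (52.5%), as also without Sham_GH 1 (42.6%). Leaving out any other library gave 1 or 2 higher and 3 or 4 lower (41.9% to 59.1%). In PEL_10d_GH against Sham_GH they were 1 (31.0%), 2 by DESeq2 (23.1%), 0 with a mean count of at least 50 (31.0%), 2 with the replicate block (31.1%), 0 in a single fit (12.9%) and 0 to 3 when each library was left out (21.0% to 36.3%).

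For the genes most like the members, 6 of the 10 by deviation from group means were shared when the minimum mean was 0.1 FPKM. With CPM in place of FPKM, chosen after seeing the data, 5 of the 10 by level and 3 of the 10 by deviation were shared. Without PEL_10d_GH 3, also chosen after seeing the data, 7 and 0 were shared.

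In the 4 comparisons that the choice did not name, the log2 fold changes that reversed ran across 0. Pdk4 ran from -0.042 to 0.13 in PEL_10d against PEL_3d, and Plin4 from -0.24 to 0.067 in PEL_3d_GH against Sham_GH. In PEL_10d_GH against Sham_GH Zbtb16 ran from -0.17 to 0.62, Fkbp5 from -0.10 to 0.39 and Pdk4 from -0.017 to 0.24. Between the tissues Hif3a ran from -0.16 to 0.21 and Klf15 from -0.00060 to 0.075. In the comparisons that the choice used, those in Sham_GH against Sham ran from -0.29 to 0.89 for Zbtb16, -0.36 to 0.44 for Klf9, -0.0013 to 0.32 for Fkbp5, -0.44 to 0.12 for Pdk4 and -0.10 to 0.088 for Nr3c1. Others that changed sign were Pdk4 in PEL_10d_GH against PEL_10d, Fkbp5 and Pdk4 in PEL_3d against Sham, Hif3a, Tsc22d3, Plin4, Sgk1 and Pdk4 in PEL_10d against Sham, Fkbp5, Klf9, Sgk1 and Pdk4 in the hippocampus, and Fkbp5, Tsc22d3, Plin4, Klf15, Sgk1 and Pdk4 in the difference between the GH effects. For all of these the cause was not tested. Hif3a and Plin4 had few counts, and how far depth limits each member was not compared.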
